A study of Homo sapiens with 24 samples.

Results

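Transcript levels of 10 genes used as markers of stem-like cancer cells, ALDH1A1, ALDH1A3, SOX2, SOX4, SOX9, KLF4, MYC, PROM1, BMI1 and NES, were examined in J82 and RT-112, which are human lines derived from bladder cancer. They were taken by gene symbol from a table of raw RNA sequencing counts that held 35993 symbols, and all 10 symbols were present. Each line contributed 4 groups of 3 biological replicates, 24 libraries in all: the parental cells, and lines established from them that the study named CD44 Low, CD44 High and CD44v6. The CD44 gene encodes the surface receptor for hyaluronan, and CD44v6 denotes isoforms that carry a variant exon. The first pair of names stands for the level of the receptor and the third for a high level of the v6 isoforms. The labels give no treatment and no other genetic change, and do not say how these lines were made or whether each is a single clone, so p-values measure the spread between replicates of one established line.

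The genes mark stem-like cells in different ways. ALDH1A1 and ALDH1A3 oxidise retinaldehyde to retinoic acid, and aldehyde dehydrogenase activity is used to sort tumour cells. SOX2, KLF4 and MYC are transcription factors used to reprogramme differentiated cells, SOX4 and SOX9 are SOX factors of epithelial progenitors, BMI1 is a subunit of Polycomb repressive complex 1, PROM1 encodes the surface antigen CD133, and NES encodes the intermediate filament protein nestin. None of them is used only by stem cells: MYC drives growth in most dividing cells, and KLF4 is also a factor of differentiating epithelia.

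Of the 7 genes that could be tested, KLF4 was the only one called in the same direction in both lines in a comparison within a line. Its promoter is therefore shown, from RefSeq, build GRCh38.p14, minus strand of chr9:107489720-107490019, 300 bases written 5′ to 3′ along the gene. Capitals mark the matches to the motifs searched on both strands.

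KLF4 promoter: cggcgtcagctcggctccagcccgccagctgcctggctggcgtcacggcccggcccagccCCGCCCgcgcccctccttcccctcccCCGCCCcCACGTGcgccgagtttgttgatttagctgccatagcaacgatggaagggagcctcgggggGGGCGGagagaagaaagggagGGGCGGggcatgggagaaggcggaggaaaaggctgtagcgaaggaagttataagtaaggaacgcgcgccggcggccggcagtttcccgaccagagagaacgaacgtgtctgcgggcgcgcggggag

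The window held 4 matches to the GC box GGGCGG, at -190 to -185, -164 to -159, -97 to -92 and -76 to -71 from the start site, and 1 match to the E-box CACGTG at -157 to -152. GGGCGG occurred in 45% of 35116 RefSeq promoters of the same length and CACGTG in 7.26%. The window held no match to TGACGTCA, found in 1.85% of promoters, to TGANTCA, found in 7.71%, to the TATA box TATAAA, found in 11.5%, or to the CArG box, found in 1.29%. The matches to different motifs do not overlap. A match describes letters in the window and nothing about binding.

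Library totals ran from 16752825 to 24419670 counts. Levels are given as CPM, the count of a gene scaled to a fixed library size, after TMM scaling over the 24 libraries. The CD44 transcript followed the names in every group mean: 444 ± 46.4 CPM (SD, n = 3) in J82 parental cells, 279 ± 27.9 in CD44 Low, 727 ± 32.0 in CD44 High and 799 ± 242 in CD44v6, and in RT-112 317 ± 27.2, 141 ± 18.2, 419.9 ± 70.0 and 448 ± 69.0. CD44 High and CD44v6 of RT-112 were not called against parental cells for CD44 (edgeR adjusted p = 0.272 and 0.163). Gene counts do not separate the v6 isoforms. Both lines expressed the keratins of epithelial cells, but J82 parental cells held EPCAM at 1.79 and CDH1 at 2.54 CPM against 329.9 and 317 in RT-112, and VIM at 368 CPM against 1.88. The gap was narrower for 6 mesenchymal markers summed, VIM included. Their sum was 1021 to 1143 CPM in J82 parental cells and 438 to 500 in those of RT-112. Of the 6, 5 exceeded 10 CPM in J82 parental cells and 2 in those of RT-112. The uroplakin gene UPK3A was at 0 in the parental cells of both lines, and the blood cell genes PTPRC and CD3E were at 0 there as well.

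A set of 3 markers was not measurable. ALDH1A1 and PROM1 had a count of 0 in all 24 libraries, and a count of 0 allows up to 3 counts, or 0.129 to 0.178 CPM depending on the library. SOX2 had 11 counts in all, in 8 libraries, and never more than 2 in one. ALDH1A3 was thus the only ALDH1A member of the set with reads, and SOX4 and SOX9 the SOX members with a level that could be compared. The other 7 genes passed the filter on low counts in every fit, and none of them passed through one group alone.

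Within J82 parental cells, levels divided by exon length ran in the order MYC at 38.2 CPM per kilobase, BMI1 at 26.8, KLF4 at 10.6, ALDH1A3 at 10.6, SOX4 at 6.62, SOX9 at 2.65 and NES at 0.130. KLF4 and ALDH1A3 did not differ beyond the spread of their replicates. In RT-112 parental cells ALDH1A3 led at 285 CPM per kilobase, ahead of MYC at 59.8, SOX4 at 26.8, BMI1 at 16.1, KLF4 at 9.91, SOX9 at 7.70 and NES at 0.898. The order of the markers therefore differed between the lines in the place of ALDH1A3 and in that of SOX4, which stood below BMI1 and KLF4 in J82 and above both in RT-112.

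The comparison of the 2 parental cultures asked how far the lines differ before any CD44-defined line is considered. Of the 7 genes tested, 1 was called higher in J82 and 5 were called lower, with 62% of 17438 genes called in the table as a whole (edgeR quasi-likelihood test, Benjamini-Hochberg adjusted p under 0.05). ALDH1A3 had 54.8, 65.8 and 51.9 CPM in the J82 parental libraries and 1456, 1519.9 and 1656 in those of RT-112, a log2 difference of -4.75 ± 0.169 (SE, adjusted p = 7.03e-16). This was the widest gap of the 7. NES was lower in J82 by a log2 difference of -2.78 ± 0.440 (adjusted p = 9.95e-06), SOX4 by -2.01 ± 0.123 (adjusted p = 3.81e-12), SOX9 by -1.53 ± 0.292 (adjusted p = 9.97e-05) and MYC by -0.64 ± 0.183 (adjusted p = 0.00416). BMI1 was higher in J82 by 0.73 ± 0.240 (adjusted p = 0.0116), a call that was lost without RT-112 parental replicate 1 (adjusted p = 0.0721) or replicate 2 (0.0548). KLF4 had 31.2 ± 3.74 CPM in J82 and 29.1 ± 5.20 in RT-112 (SD, n = 3), a log2 difference of 0.11 with a 95% interval of -0.16 to 0.37.

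**Figure D1:**
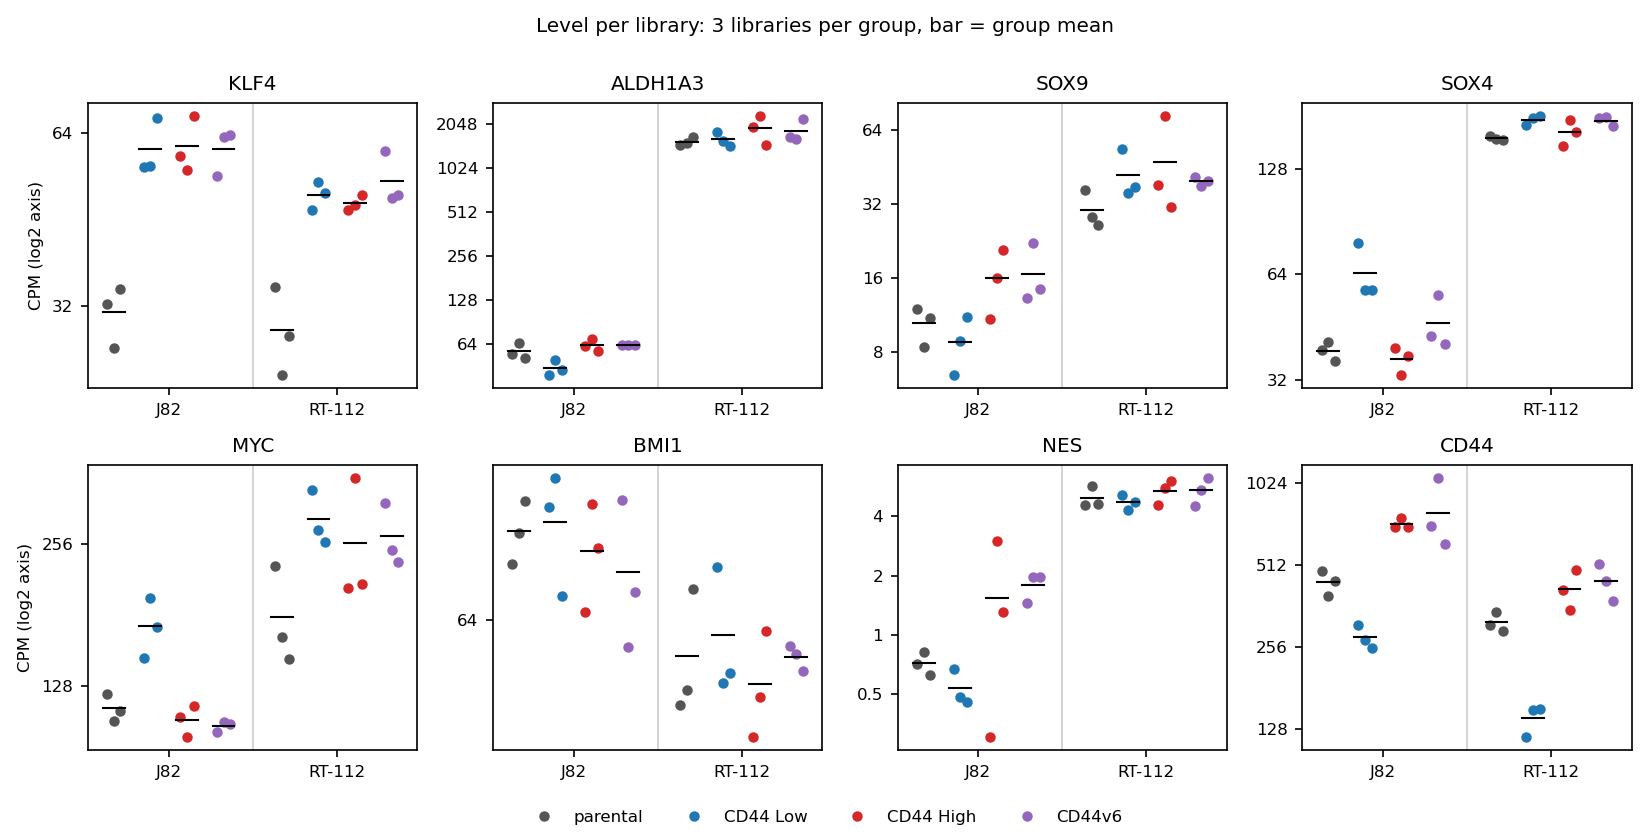
Level of the 7 testable marker genes and of CD44 in each library, as CPM on a log2 axis that does not start at 0, by line and group, with 3 points per group and a bar at the group mean. KLF4 lies higher in the 3 CD44-defined groups than in parental cells in both lines, while ALDH1A3, SOX4 and MYC separate CD44 Low from CD44 High in J82 and overlap between these groups in RT-112.

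KLF4 rose in each of the CD44-defined lines of both J82 and RT-112 relative to parental cells, whether the line was named for low or high CD44. In J82 its level was 32.3, 27.1 and 34.3 CPM in parental libraries and 55.7, 56.0 and 67.9 in CD44 Low. It was 58.2, 55.1 and 68.5 in CD44 High and 53.9, 63.0 and 63.3 in CD44v6. All 9 of these libraries lay above the 3 parental ones. In RT-112 it was 34.6, 24.2 and 28.4 CPM in parental libraries and 46.9, 52.5 and 50.2 in CD44 Low. CD44 High had 46.9, 47.8 and 49.9, and CD44v6 had 59.4, 49.3 and 49.9, again without overlap with the parental libraries.

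On the log2 scale the change of KLF4 in J82 was 0.94 ± 0.124 in CD44 Low (SE, edgeR adjusted p = 0.000901), 0.96 ± 0.124 in CD44 High (adjusted p = 0.00172) and 0.94 ± 0.124 in CD44v6 (adjusted p = 0.00358). In RT-112 it was 0.75 ± 0.126 (adjusted p = 0.00767), 0.73 ± 0.126 (adjusted p = 0.0216) and 0.82 ± 0.126 (adjusted p = 0.0105). The 3 comparisons of a line share its parental libraries, so they are not independent of each other. CD44 High and CD44 Low differed in KLF4 by 0.02 in J82 (95% interval -0.24 to 0.29) and by -0.01 in RT-112 (-0.28 to 0.25). The rise was not shown to differ between the lines: J82 minus RT-112 was 0.16 in CD44 Low (95% interval -0.22 to 0.53, adjusted p = 0.788) and 0.08 in CD44v6 (-0.30 to 0.45, adjusted p = 0.940). In RT-112 the CD44 High call was lost without parental replicate 2 (adjusted p = 0.158) or 3 (0.164), without CD44 High replicate 1 (0.122) or 2 (0.0514), and in a fit on these 2 groups alone (0.123), and the CD44v6 call without parental replicate 2 (0.0707) or 3 (0.0724) or CD44v6 replicate 1 (0.0658). The calls in CD44 Low remained in every fit that left out 1 library, in both lines.

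Against parental cells KLF4 was the only marker called in the J82 lines CD44 High and CD44v6, where 2.94% and 2.6% of 15951 genes were called. It was also the only one called in RT-112 CD44 Low, CD44 High and CD44v6, where 3.2%, 0.511% and 0.614% of 15645 genes were called. In J82 CD44 Low, where 5.34% of genes were called, 3 of the 7 markers were called, all higher: KLF4, SOX4 and MYC. The difference between the lines was tested for CD44 Low and for CD44v6 against parental cells, and there 1.06% and 0.138% of 17438 genes were called. None of the 7 markers was among them with edgeR, although 2 and 1 had an unadjusted p under 0.05, and DESeq2 called 1 in the first contrast, SOX4, and 0 in the second.

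KLF4 belongs, with MYC, to the genes that growth factors and stress induce quickly, and a list of 15 other immediate-early genes was read beside it. Against J82 parental cells, 8 of the 15 were called in CD44 Low, 9 in CD44 High and 9 in CD44v6, all higher, with medians of 1.30, 1.65 and 1.56 on the log2 scale beside medians of 0.00, 0.00 and 0.01 over all genes tested. FOSB, a subunit of the transcription factor AP-1, rose by 2.60 ± 0.346 in J82 CD44v6 (adjusted p = 0.00358), and NR4A1, an inducible nuclear receptor, by 2.61 ± 0.598 (adjusted p = 0.0404). In RT-112, 2, 2 and 3 of the 15 were called, all higher, with medians of 0.05, 0.44 and 0.52 beside -0.01, 0.00 and 0.00 over all genes. The shares of all genes called were 5.34%, 2.94% and 2.6% in J82 and 3.2%, 0.511% and 0.614% in RT-112. DUSP1, a phosphatase that switches off MAP kinases, rose by 0.94 ± 0.116 in RT-112 CD44v6 (adjusted p = 0.00237). The part of these genes in the KLF4 result was not tested. Among the other KLF factors, KLF10 rose in CD44v6 of both lines, by 0.97 ± 0.179 (adjusted p = 0.0156) in the J82 line and 1.37 ± 0.182 (adjusted p = 0.00399) in the RT-112 line. KLF10 was the only one of 12 tested that was called in J82 CD44v6, and in RT-112 CD44v6 KLF6 was called as well, of 10 tested, at 0.59 ± 0.115 (adjusted p = 0.0402).

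**Figure D2:**
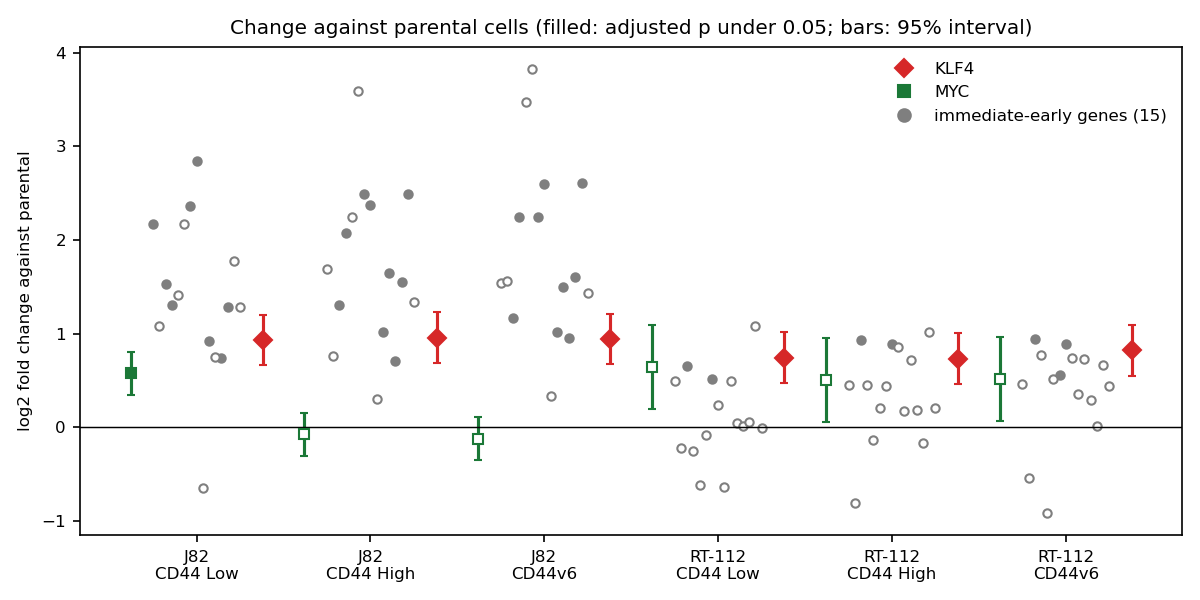
Log2 fold change against parental cells in each CD44-defined line, for KLF4 and MYC with 95% intervals and for 15 immediate-early genes, filled where the adjusted p was under 0.05. KLF4 is filled and between 0.73 and 0.96 in all 6 comparisons, while MYC is filled in J82 CD44 Low alone.

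CD44 High and CD44 Low are the lines named for opposite levels of the receptor, and in J82 they differed in 4 of the 7 markers. ALDH1A3 and SOX9 were higher in J82 CD44 High and SOX4 and MYC were lower, with 15.7% of 15951 genes called in this comparison. J82 CD44v6 against CD44 Low gave 3 called markers, ALDH1A3 and SOX9 higher and MYC lower, with 9.58% of genes called. These comparisons share the CD44 Low libraries.

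ALDH1A3 in J82 had 39.4, 49.8 and 42.6 CPM in CD44 Low, 62.7, 69.3 and 57.5 in CD44 High, and 63.9, 63.9 and 63.2 in CD44v6. Every CD44 Low library lay below the other groups, the parental libraries included. The log2 difference was 0.53 ± 0.114 for CD44 High (SE, edgeR adjusted p = 0.00733) and 0.54 ± 0.114 for CD44v6 against CD44 Low (adjusted p = 0.00927). CD44 Low against parental cells gave -0.39 ± 0.114 (adjusted p = 0.0684), which did not pass the test but passed it with the replicate number as a block (adjusted p = 0.0281) and with DESeq2 (0.0277).

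SOX9 in J82 had 6.40, 8.80 and 11 CPM in CD44 Low, 10.9, 16.0 and 20.8 in CD44 High, and 13.2, 22.2 and 14.4 in CD44v6. The lowest CD44 High library lay just under the highest CD44 Low library, so these groups overlapped, while CD44v6 lay wholly above CD44 Low. The log2 difference was 0.86 ± 0.271 (adjusted p = 0.0475) and 0.92 ± 0.271 (adjusted p = 0.0497). Both calls were at the threshold. The first was lost without CD44 Low replicate 1 (adjusted p = 0.173) or 2 (0.104) or CD44 High replicate 2 (0.111) or 3 (0.168), and the second without CD44 Low replicate 1 (0.160) or 2 (0.125) or CD44v6 replicate 2 (0.135) or 3 (0.0554). Of the 7 other processing alternatives, 3 lost the first call (adjusted p up to 0.0693) and 5 the second (up to 0.109).

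SOX4 had 38.8, 41.1 and 36.3 CPM in J82 parental cells, 78.5, 57.7 and 57.7 in CD44 Low, 39.5, 33.0 and 37.4 in CD44 High, and 42.8, 55.9 and 40.5 in CD44v6. CD44 Low was the high group, and its 3 libraries overlapped no other group. SOX4 rose by 0.73 ± 0.146 in CD44 Low against parental cells (edgeR adjusted p = 0.0115) and was lower by a log2 difference of -0.81 ± 0.146 (adjusted p = 0.00227) in CD44 High than in CD44 Low. CD44v6 against CD44 Low gave -0.48 ± 0.145 (adjusted p = 0.0587), which passed without CD44v6 replicate 2 (-0.62, adjusted p = 0.0145), with DESeq2 (0.0329) and in the fit over all 24 libraries (0.0124), while the other 5 fits with 1 library left out did not call it (adjusted p up to 0.248). The rise against parental cells was not called without parental replicate 1 (adjusted p = 0.0524) or 3 (0.0629) or CD44 Low replicate 1 (0.0561), where its size was 0.56.

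MYC was also highest in CD44 Low among the J82 groups. It had 123, 108 and 113 CPM in parental cells, 147, 197 and 171 in CD44 Low, 110.1, 99.6 and 116 in CD44 High, and 102, 107 and 106 in CD44v6. Every CD44 Low library was above all others. MYC rose by 0.58 ± 0.106 in CD44 Low against parental cells (edgeR adjusted p = 0.00780) and was lower by -0.65 ± 0.106 in CD44 High (adjusted p = 0.00120) and by -0.70 ± 0.106 in CD44v6 (adjusted p = 0.00101), both against CD44 Low. The rise was not called without parental replicate 2 (adjusted p = 0.0541) or in the fit over all 24 libraries (0.0634).

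Marker genes of other cell classes also differed for CD44 Low. The summed level of 5 fibroblast markers ran from 994 to 1285 CPM in J82 CD44 Low, against 549.5 to 614 in parental cells, 395 to 444 in CD44 High and 401 to 505 in CD44v6. Of the 5, 2 exceeded 10 CPM in CD44 Low, COL3A1 and LUM, DCN was at 0 in all 24 libraries, and PDGFRA had no more than 3 counts in a library. The summed level of 12 epithelial and urothelial markers was 6471 to 7878 CPM in J82 CD44 Low and 8041 to 9584 in parental cells, and that of 5 immune markers, nearly all from CD68, was 78.6 to 123 against 152 to 175. In RT-112 CD44 Low the fibroblast sum was 215 to 272 CPM, mostly from LUM, against 164 to 198 in parental cells, 119.8 to 184 in CD44 High and 127 to 183 in CD44v6, so it was higher in CD44 Low there too. The epithelial and urothelial sum was not lower there, at 12661 to 14895 CPM against 11870 to 12686 in parental cells. The immune sums of RT-112 CD44 Low and parental cells overlapped. The summed level of 6 mesenchymal markers was lower in RT-112 CD44 Low, at 336 to 383 CPM against 438 to 500 in parental cells. In J82 CD44 Low it was 903 to 1135 CPM, overlapping parental cells at 1021 to 1143 and below CD44 High at 1232 to 1403. In bulk RNA, fewer cells of a type and less RNA per cell cannot be told apart, and the part of these markers in the ALDH1A3, SOX4 and MYC differences was not tested.

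In RT-112, none of the 7 markers was called between CD44 High and CD44 Low or between CD44v6 and CD44 Low, although 16% of 15645 genes were called in the first comparison and 16% in the second. With edgeR 0 of the 7 had an unadjusted p under 0.05 in either, and DESeq2 called 0. ALDH1A3 had 1804, 1547 and 1439 CPM in RT-112 CD44 Low and 1942, 2312 and 1454 in CD44 High, which overlapped, with a log2 difference of 0.28 (95% interval -0.04 to 0.61, adjusted p = 0.223). Without CD44 High replicate 3 it was 0.44 and called (adjusted p = 0.0346). SOX9 had 53.2, 35.2 and 37.5 CPM in CD44 Low and 38.1, 73.0 and 31.2 in CD44 High, so that one library set the mean. Its log2 difference of 0.20 (95% interval -0.35 to 0.74) became -0.24 without CD44 High replicate 2.

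SOX4 in RT-112 had 171, 179 and 182 CPM in CD44 Low and 149, 177 and 163 in CD44 High, a log2 difference of -0.09 (95% interval -0.24 to 0.07). MYC had 332, 274 and 258 CPM in CD44 Low and 206, 353 and 211 in CD44 High, a difference of -0.14 (95% interval -0.59 to 0.31). Both pairs of groups overlapped. Against RT-112 parental cells, with 229.9, 162 and 146 CPM, MYC gave 0.65 ± 0.209 in CD44 Low (edgeR adjusted p = 0.117), 0.51 ± 0.208 in CD44 High (0.344) and 0.52 ± 0.208 in CD44v6 (0.254), none of which passed. The CD44 Low value passed with DESeq2 (adjusted p = 0.0347), in the fit over all 24 libraries (0.0459) and in the fit on the 2 groups (0.0349).

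Whether the markers changed differently in the 2 lines was tested as the J82 change minus the RT-112 change from CD44 Low to CD44 High, in which 10.7% of 17438 genes were called. SOX4 was the only one of the 7 called, at -0.70 ± 0.168 (SE, edgeR adjusted p = 0.00944), and all 12 fits with 1 library left out kept this call. For ALDH1A3 the difference between the lines was 0.27 (95% interval -0.16 to 0.70, adjusted p = 0.466), for SOX9 0.69 (-0.16 to 1.53, adjusted p = 0.318) and for MYC -0.49 (-1.02 to 0.05, adjusted p = 0.252). These 3 genes were called in J82 and not in RT-112, but a difference between the lines was not shown. SOX9 was called without RT-112 CD44 High replicate 2 (1.14, adjusted p = 0.0489). For NES the difference was 1.29 ± 0.610 (adjusted p = 0.192), and it ran from 0.38 without J82 CD44 High replicate 2 (adjusted p = 0.758) to 1.80, which was called, without J82 CD44 High replicate 1 (adjusted p = 0.00865).

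**Figure D3:**
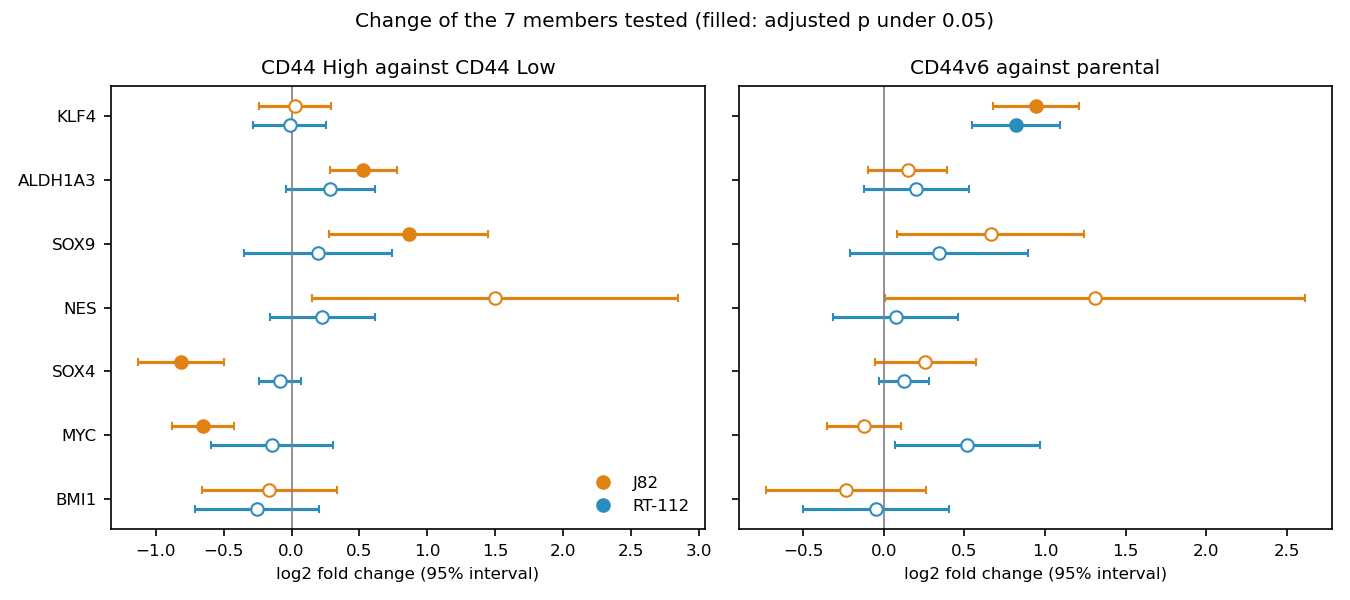
Log2 fold change of the 7 testable markers with 95% intervals in CD44 High against CD44 Low (left) and CD44v6 against parental cells (right), in J82 and RT-112, filled where the adjusted p was under 0.05. On the left 4 J82 points are filled and none of RT-112, and on the right KLF4 is the only filled gene in both lines.

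NES was close to the limit of measurement in J82. Its counts were 16, 15 and 12 in parental cells, 12, 9 and 8 in CD44 Low, 7, 61 and 25 in CD44 High, and 30, 33 and 36 in CD44v6. The CD44v6 libraries lay above those of parental cells and CD44 Low, while CD44 High held both the lowest and the highest library of the line. The log2 difference was 1.5 ± 0.622 for CD44 High (edgeR adjusted p = 0.123) and 1.73 ± 0.623 for CD44v6 (adjusted p = 0.107) against CD44 Low, and neither passed. The first rested on single libraries: it was 0.56 without CD44 High replicate 2 (adjusted p = 0.602) and 1.99, and called, without CD44 High replicate 1 (adjusted p = 0.0141). Both were called in the fit over all 24 libraries (adjusted p = 0.0386 and 0.0235). In RT-112 NES ran from 4.32 to 6.28 CPM over the 12 libraries, and CD44 High against CD44 Low gave 0.23 (95% interval -0.16 to 0.61). Among 7 other intermediate filament genes tested in J82, 2 were called in CD44 High against CD44 Low, with 15.7% of 15951 genes called. They were VIM, the filament of mesenchymal cells, at 1.40 ± 0.0781 (edgeR adjusted p = 2.89e-07) and INA, a neuronal filament gene, at 0.76 ± 0.179 (adjusted p = 0.0116). In RT-112, 1 of 6 tested was called, LMNB2 at 0.39 ± 0.0821 (adjusted p = 0.00708), with 16% of 15645 genes called.

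BMI1 was not called in any comparison within a line. It ran from 57.3 to 114 CPM in J82 and from 39.6 to 79.4 in RT-112, with a ratio of highest to lowest library of 1.99 and 2.01. The groups overlapped throughout. CD44 High against CD44 Low gave -0.16 ± 0.229 in J82 (95% interval -0.66 to 0.33) and -0.25 ± 0.211 in RT-112 (-0.71 to 0.20). The table also lists COMMD3-BMI1, a read-through gene that joins the upstream neighbour COMMD3 to BMI1 on the same strand. It held 9317 counts over all libraries beside 33681 for BMI1, and its count ran from 6 to 1104 in J82 libraries, within CD44v6 alone from 6 to 1058, and from 7 to 786 in RT-112 libraries.

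In J82 CD44v6, for instance, BMI1 had 104, 57.3 and 71.5 CPM and COMMD3-BMI1 had 0.291, 43.8 and 58.0, so that the libraries low in one gene were high in the other. With both genes summed, an alternative chosen after seeing the data, the ratio of highest to lowest library fell to 1.32 in J82 and 1.58 in RT-112. The summed difference between the parental lines was 0.71 ± 0.126 (edgeR adjusted p = 3.9e-05), and CD44 High against CD44 Low gave -0.13 in the J82 lines (adjusted p = 0.498) and -0.26 for RT-112 (adjusted p = 0.185). RT-112 CD44v6 against CD44 Low changed from -0.13 (adjusted p = 0.715) for BMI1 alone to -0.43 ± 0.127 (adjusted p = 0.0373) for the sum. The level of BMI1 alone is therefore uncertain wherever it is given.

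**Figure D4:**
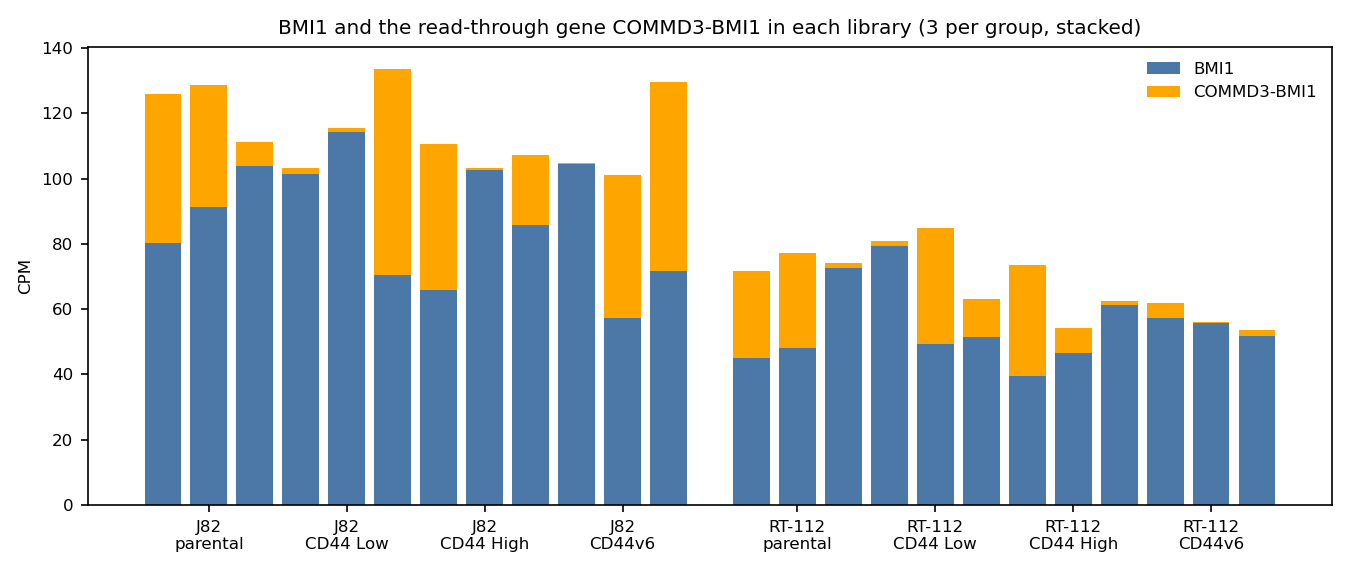
CPM of BMI1 and of the read-through gene COMMD3-BMI1 in each of the 24 libraries, stacked, in the order of replicates 1 to 3 within each group. The height of the blue part runs from 57.3 to 114 CPM in J82, while the full bars run from 101 to 134.

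CD44v6 against CD44 High gave no called marker in either line, in comparisons where 0% of genes were called with edgeR. In J82, 1536 of 15951 genes had an unadjusted p under 0.05 and DESeq2 called 62, and in RT-112 these counts were 665 of 15645 and 2. Among the 7 markers, SOX4 in J82 had an unadjusted p under 0.05, at 0.34 ± 0.146 (adjusted p = 0.517), its CD44v6 libraries lying above all of CD44 High. DESeq2 called 0 of the 7 in either line. The 95% intervals of the other genes in J82 ran from -0.23 to 0.26 for ALDH1A3, from -0.28 to 0.25 for KLF4 and from -0.28 to 0.18 for MYC. They were wider for SOX9, from -0.51 to 0.63, for BMI1, from -0.62 to 0.37, and for NES, from -1.01 to 1.48.

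Families and partners of the markers were read in CD44 High against CD44 Low from lists, by count and median, with all genes tested at a median of -0.02 in J82 and 0.02 in RT-112 and 15.7% and 16% of them called. Of the other aldehyde dehydrogenases, 12 of 17 were tested in each line: 2 were called higher and 1 lower in J82 (median 0.09) and 6 lower in RT-112 (median -0.38). ALDH2, the mitochondrial acetaldehyde enzyme, rose by 1.44 ± 0.151 in J82 (adjusted p = 4.21e-05), and ALDH3A1, an enzyme of surface epithelia, was lower by -1.57 ± 0.205 in RT-112 (adjusted p = 0.000497). ALDH5A1 was lower in both lines, by -0.50 ± 0.102 (adjusted p = 0.00556) and -0.47 ± 0.138 (adjusted p = 0.0354).

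Around retinoic acid, the product of ALDH1A3, 2 of 12 tested genes were called higher and 2 lower in J82 and 3 of 13 lower in RT-112, with medians of -0.14 and -0.15. TGM2, a transglutaminase induced by retinoic acid, rose by 2.14 ± 0.252 in J82 (adjusted p = 9.83e-05), and RDH10, which makes the retinaldehyde that ALDH1A enzymes use, was lower by -1.64 ± 0.124 (adjusted p = 2.14e-06). In RT-112 the retinoic acid carrier CRABP2 was lower by -1.94 ± 0.314 (adjusted p = 0.00194). Of the other SOX factors, 1 of 5 tested was called lower in J82 and 2 of 6 higher in RT-112, SOX7 by 0.64 ± 0.162 (adjusted p = 0.0177).

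For MYC, 4 of 11 tested family members and partners were called in J82, all lower (median -0.45), as MYC itself was. Among them were its antagonists MNT, at -0.97 ± 0.229 (adjusted p = 0.0120), and MXI1, at -0.58 ± 0.158 (adjusted p = 0.0265). In RT-112, where MYC was not called, 1 of 12 was higher and 2 were lower, MYCL by -1.45 ± 0.162 (adjusted p = 0.000185). Of 20 MYC target genes, 1 was called in J82, higher, and 11 in RT-112, all higher (medians -0.06 and 0.39). ODC1, the polyamine enzyme ornithine decarboxylase, rose in both lines, by 0.47 ± 0.0982 (J82, adjusted p = 0.00601) and 0.60 ± 0.113 (RT-112, adjusted p = 0.00415), and SRM, the next enzyme of that pathway, by 1.15 ± 0.183 in RT-112 (adjusted p = 0.00178). In J82 the 1 called target, ODC1, moved opposite to MYC. That share of the 20 targets lay below the 15.7% of all genes called. Their median of -0.06 lay near that of all genes, -0.02.

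The list of 20 other Polycomb subunits was wider than the complexes that hold BMI1. Of these, 1 was called in J82, PHC2 at 0.54 ± 0.160 (adjusted p = 0.0371), and 4 in RT-112, all higher. This was a share below the background of called genes in J82 and near it in RT-112. Of those 4, CBX2 changed most, at 0.78 ± 0.195 (adjusted p = 0.0176). Of 12 pluripotency genes, read beside SOX2, 4 could be tested in J82, with 1 called lower, and 2 in RT-112, where edgeR called 0. Of the other surface markers of stem-like cells, read beside PROM1, 4 of 15 tested were called higher and 2 lower in J82, and 3 of 10 higher and 2 lower in RT-112. The integrin subunit gene ITGA6 rose in both lines, by 1.10 ± 0.0904 (adjusted p = 4.58e-06) and 1.03 ± 0.0886 (adjusted p = 4.36e-05). The drug exporter gene ABCG2 moved in opposite directions, at 0.82 ± 0.218 (J82, adjusted p = 0.0225) and -0.78 ± 0.137 (RT-112, adjusted p = 0.00298).

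The genes whose pattern was most like each marker were found among 8731 genes by Pearson's r of log2 CPM over the 24 libraries, centred within each line, which describes these libraries and shares their depth and groups. KLF4 was most like the immediate-early gene DUSP1 (r = 0.92, Spearman's rho 0.72), followed by CSRNP1 (r = 0.89). By rank FASTKD5 came first for KLF4 (rho 0.92), GLUD1 for ALDH1A3 (0.91) and CDK13 for SOX4 (0.88). For SOX9, MYC, NES and BMI1 the same gene came first by both measures. ALDH1A3 was most like TCF19 (r = 0.94) and UBB (0.88), SOX9 most like FOSL2 (0.90) and EPHA2 (0.85), and MYC most like UBAP1 (0.85) and POFUT2 (0.80). SOX4 was most like SEMA5A (0.90) and PATJ (0.90). Within J82 these had r = 0.92 and 0.96, and within RT-112 0.61 and 0.20. NES was most like RAVER2 (0.78) and LRRC8C (0.73). Within J82 these had r = 0.84 and 0.85, and within RT-112 0.37 and -0.00. BMI1 was most like its neighbour COMMD3 (0.83), whose reads the read-through gene can also take, and WDR11 (0.72).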

How the data were processed

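RNA of 24 libraries (2 lines, 4 groups each, 3 replicates) was sequenced by a service company. The authors deposited raw counts per gene symbol; the submitters' processing notes name HISAT2, StringTie and GRCh37, while counter, annotation and strand are not given in the sources used here. All 24 columns matched a sample title.

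Counts were tested in R 4.3.3 with edgeR 4.0.16 (filterByExpr with a minimum count of 10, TMM, quasi-likelihood F-test, two-sided), per line on 12 libraries (15951 genes in J82, 15645 in RT-112) and over all 24 (17438 genes) for parental cells and differences between the lines. P-values were Benjamini-Hochberg adjusted over all genes tested and called under 0.05. Standard errors come from the F statistic, intervals are 95%. Gene lengths and overlaps came from GENCODE 29, promoters from RefSeq (8 of 10 members matched). At 16752825 to 24419670 counts per library, counting error limits NES most. Alternatives were other scalings, no filter, DESeq2 1.42.0, a replicate block, other sets of libraries, leaving out each library, library totals for levels, Spearman's rho for likeness and, added later, BMI1 summed with COMMD3-BMI1. The tests were checked on simulated data.

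The 10 members and the gene lists were chosen with earlier results of these data known. Genes named besides the members and CD44 were drawn by a rule, per list and line, in CD44v6 against parental cells and in CD44 High against CD44 Low. It took the 2 called genes with the largest change at an average log2 CPM of at least 3. It also took list genes called in both lines in CD44 High against CD44 Low, and the 2 genes most like each member. Not every gene that met it is described. Marker genes of cell types were named after their values were seen. The result of a gene that met this rule is not reported here. Replicate numbers are shared between groups, and the labels do not say what they mark. Deviations of same-numbered libraries correlated over 0.1 in all 3 pairs in 1 of 12 comparisons, J82 CD44v6 against CD44 High (0.11, 0.11 and 0.25), a pairing seen in the data that no label states. Figures were drawn with matplotlib 3.10.9.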

Additional observations from a re-analysis of the deposited data

Results flagged for a closer look

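For SOX4, the change from CD44 Low to CD44 High differed between the lines when the difference itself was tested over all 24 libraries (J82 minus RT-112, edgeR interaction contrast): -0.70 ± 0.168 on the log2 scale (SE, adjusted p = 0.00944), with J82 CD44 High below CD44 Low in 3 of 3 libraries and overlapping groups in RT-112. The same contrast was called for genes of the lists, of which only those named under the rule are given here. Lower in J82 relative to RT-112 were MNT (-1.05), MXI1 (-0.71), SRM (-1.29), LMNB2 (-0.40), KLF7 (-1.12), CBX2 (-1.0), JARID2 (-0.79) and RDH10 (-1.41). Higher were ALDH1L1 (1.04), VIM (2.16), ABCG2 (1.63) and CRABP2 (3.44), with adjusted p up to 0.0481, that of MNT. The CRABP2 value (SE 1.07) rested on low J82 counts: 6, 5 and 0 in CD44 Low and 0, 24 and 12 in CD44 High. The VIM value (SE 0.539) compares J82 with RT-112, where its level was low in parental cells.

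Among the list genes named under the rule, FOSB (2.58), ABCG2 (-1.28) and RDH10 (0.74) differed between the lines in CD44 Low against parental cells. In CD44v6 against parental cells RDH10 did (-0.80). These are not all the list genes called. Of 15 immediate-early genes, 3 were called in the first contrast and 2 in the second, all higher in J82 relative to RT-112. Of 15 retinoic acid genes tested, 2 were called higher in the first and 1 lower in the second. The shares of all 17438 genes called were 1.06% and 0.138%.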

How the results depend on the processing

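Of the counts of called markers, 219 values under the alternatives stayed within 1.5 times the reported count and 16 did not. In RT-112 CD44 Low against parental cells the count was 2 with DESeq2, over all 24 libraries and on the 2 groups alone, where MYC joined KLF4. In RT-112 CD44 High against parental cells it was 0 on the 2 groups alone and 0 to 1 when 1 library was left out. For RT-112 it ran from 0 to 1 in CD44v6 against parental cells and in CD44 High against CD44 Low, and from 1 to 2 for the difference between the lines in CD44 High against CD44 Low, when 1 library was left out. DESeq2 gave 1 for the difference in CD44 Low against parental cells, SOX4 (0.55, adjusted p = 0.0378), and summing BMI1 with its read-through gene gave 1 in RT-112 CD44v6 against CD44 Low, a value not repeated with libraries left out. Apart from the alternatives' own construction, the cause was not tested.

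Directions reversed only for values that did not pass the test, when 1 library was left out: in RT-112, SOX9 in CD44 High against CD44 Low (-0.240 to 0.422) and BMI1 in CD44v6 against CD44 Low (-0.262 to 0.112), KLF4 in CD44 High against CD44 Low in J82 (-0.0211, -0.0230 and -0.0688, up to 0.128) and RT-112 (-0.0622 to 0.0200), KLF4 between the parental cells (-0.0105 to 0.221), and the KLF4 difference between the lines in CD44v6 against parental cells (-0.0133 to 0.191). The replicate block changed no other call than that of ALDH1A3 in J82 CD44 Low against parental cells (-0.39, adjusted p = 0.0281), and in J82 CD44v6 against CD44 High, where the data pair the libraries, it called none of the markers.

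SOX2, ALDH1A1 and PROM1 could not be tested, with 11, 0 and 0 counts over all 24 libraries, and the reason for these low counts was not tested. Counting error limits NES in J82, at 7 to 61 counts a library. In J82, the CD44 calls of CD44 Low and CD44 High against parental cells (adjusted p = 0.0329 and 0.0355) were each lost in all 6 fits that left out 1 library (0.0580 to 0.131 and 0.0783 to 0.177), and that of CD44v6 (0.0214) in 3 of 6, those without a parental library (up to 0.121).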
